A study of Mus musculus with 24 samples.

Results

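RNA polymerase I (Pol I) transcribes the rRNA genes, and this account follows the mRNAs of its transcription machinery from embryonic stem cells (ESCs) to neural progenitor cells (NPCs). The genes were given as a list by name: Polr1a, Polr1b, Polr1c, Polr1d, Polr1e, Rrn3, Ubtf, Taf1a, Taf1b and Taf1c. All 10 were found among the 21909 gene symbols of the RNAseq tables, and the rule that lists them uses no measured level, although earlier results of these data were known when the list was made. The study mapped the DNA that contacts nucleoli in mouse ESCs and NPCs and measured gene expression in both. RNAseq comprised 3 ESC samples and 3 NPC samples, each from an independent culture dish. The ESCs were of the E14 line, untreated, and grown with LIF (1000 U/ml), 3 µM CHIR99021 and 1 µM PD0325901. The NPCs were derived in vitro from E14 cells over 8 days, as embryoid bodies in suspension in a medium with fetal calf serum. They received 2 µM retinoic acid during the last 4 days, with no further treatment. For the maps of nucleolar contacts, 2 H2B-Dam-NoLS and 2 H2B-Dam samples per cell type were treated with doxycycline (100 ng/ml) and Shield1 (1 µM) for 15 h. All 6 samples thus descend from a single cell line, and since the labels name no batch shared by the cell types, a batch effect and a difference of cell type cannot be told apart. The medium also differed between the cell types, and its effect cannot be told apart from that of cell type either.

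Pol I works in the nucleolus. At the promoter of an rRNA gene, the upstream binding factor UBF, encoded by Ubtf, and the selectivity factor SL1, a complex of TBP with TAFI subunits, mark the start site, and only a polymerase bound by TIF-IA, the product of Rrn3, is able to initiate there. The synthesis of rRNA is a main determinant of ribosome supply and is known to be high in pluripotent cells. The mRNA levels below say nothing directly about rRNA synthesis or protein amounts, neither of which was analysed here.

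Expression is given as RPKM, reads scaled to gene length in kb and to library size, as the authors deposited it. The values were whole multiples of what a single read is worth when RPKM was multiplied by the genomic span of the gene, introns included. Within 0.05 of a whole number in all 6 samples lay 20274 of 21454 genes (94.5%). Among genes with at most 20 reads, 96.6% to 97.1% of the values were whole by span, against 16.1% to 17.8% by exon length. RPKM therefore understates the levels of genes with long introns, and levels of different genes were compared only after rescaling to transcript length. The same steps gave the reads behind each sample, 34051992, 33732018 and 30779728 for ESCs and 30151252, 27262786 and 32297555 for NPCs, in the order of the replicates, which is kept below. The 10 genes had between 411 and 13496 reads per sample. The counting error of a value was thus at most 4.93%, smaller than most of the differences described below.

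ESC replicate 3 stood apart from the other ESC samples. Over the 7078 genes with a mean of at least 1 RPKM and a gene model, its log2(RPKM + 1) differed from the mean of ESC replicates 1 and 2 with an SD of 0.49, whereas ESC replicates 1 and 2 differed from each other with an SD of 0.09 and the NPC samples with SDs of 0.07 to 0.12. The deviation followed transcript length (Spearman's rho across genes -0.73). Genes with a main transcript of up to 1 kb were higher in ESC replicate 3, by a median of 0.74 on the log2 scale, and genes with more than 6 kb were lower, with a median of -0.58. Polr1d and Polr1c, with transcripts of 1196 and 1314 bases, stood at 1.84 and 1.45 times the mean of ESC replicates 1 and 2. Polr1a, with the longest transcript of the list at 9216 bases, stood at 0.567 times that mean. Single members departed from the medians of their length classes. Polr1a (-0.60 against -0.58) and Taf1b (0.03 against 0.03) lay close to them, and the other 8 did not. The largest departure was that of Taf1a, with 1472 bases, whose log2 deviation was -0.02 against a median of 0.36. Differences of the named genes, apart from markers, are therefore also given without ESC replicate 3, and the cause of the deviation was not tested.

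**Figure D1:**
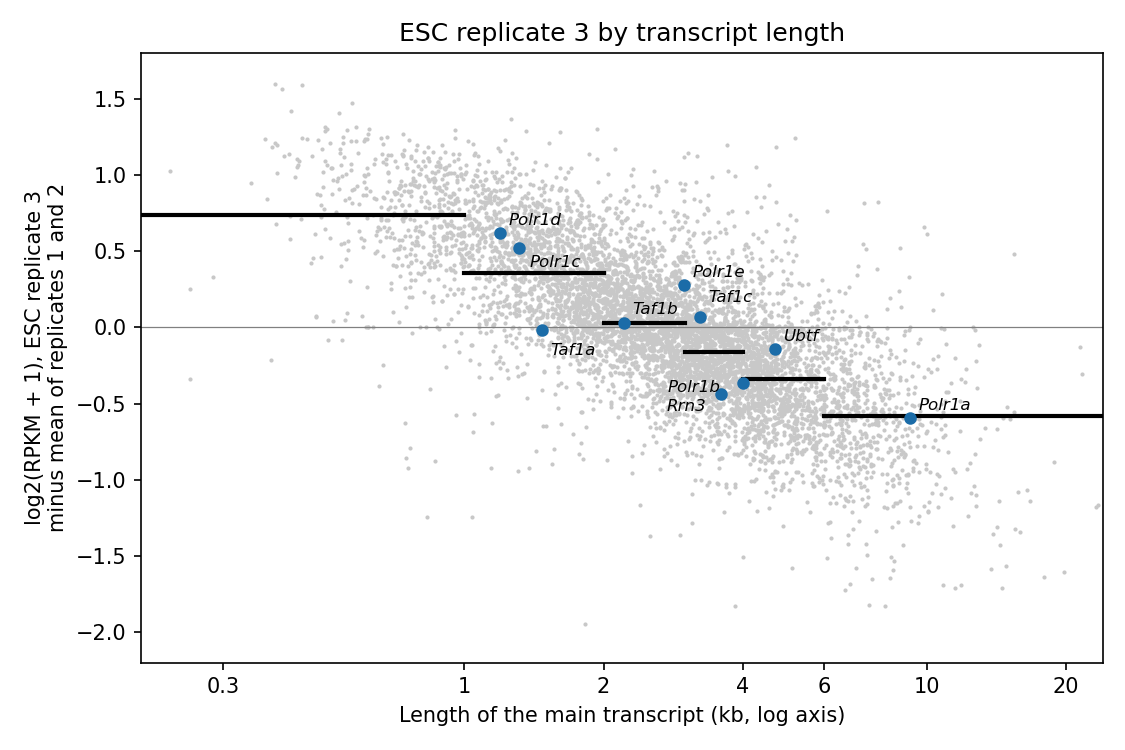
Difference of log2(RPKM + 1) between ESC replicate 3 and the mean of ESC replicates 1 and 2 (vertical axis) against the length of the main transcript in kb (horizontal log axis) for 7078 genes (grey points), with medians of 6 length classes as black lines and the 10 Pol I machinery genes as blue points. The medians run from 0.74 for genes of up to 1 kb to -0.58 for genes above 6 kb, and among the members Polr1a and Taf1b lie closest to the median of their class, while Taf1a (-0.02 against 0.36) lies farthest from it.

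The cell types were checked by marker genes, with levels as RPKM rescaled to the length of the main transcript. All 10 pluripotency markers were called lower in NPCs. Their summed level was 4244, 4239 and 7675 in the ESC samples and 12.7, 13.5 and 14.9 in the NPC samples, and Dppa5a was the most abundant in ESCs with 3473. Of the 10 neural progenitor markers, 6 were tested and 5 were called higher in NPCs, with sums of 149.9, 157 and 192 in ESCs and 273, 282 and 300.2 in NPCs. The most abundant was Vim in both cell types, while Hes5 and Olig2 were at 0 in all ESC samples. With no filter 9 of the 10 were called higher, and 2 of 3 tested with a filter of at least 5 RPKM. Vim itself was not called in the main comparison, but was called higher in NPCs without ESC replicate 3 (adjusted p = 0.00196) and under quantile normalization (adjusted p = 0.000299). The NPC samples thus carried their defining markers. They also carried markers of other lineages. The 8 endoderm markers summed to 2.04, 2.01 and 1.57 in ESCs and to 217, 221 and 221 in NPCs, where Gata4 was the most abundant with 127, and 4 of 4 tested were called higher, or 8 of 8 with no filter. The 8 mesoderm markers summed to 5.30, 5.49 and 4.49 in ESCs and to 76.4, 72.6 and 66.5 in NPCs, where Foxf1 led with 41.6, and 3 of 3 tested were called higher. T, the most abundant mesoderm marker in ESCs with 3.78, was below the filter and stood at 0.0487 in NPCs. With no filter 4 of the 8 mesoderm markers were called higher and 2, T and Mixl1, lower. The 10 neuron markers summed to 157, 162 and 212 in ESCs, where Stmn2 was the most abundant with 133, and to 133, 111 and 122 in NPCs, where Dcx was the most abundant with 53.2. The neuron markers that passed the filter, Stmn2 and Tubb3, were called lower in NPCs. With no filter all 10 were tested, and the other 8, Dcx among them, were called higher in NPCs. Afp, Ttr, Dcx, Syt1 and Foxf1 were at 0 in all ESC samples, and no marker was at 0 in all NPC samples. In such bulk samples fewer cells of a type and less RNA per cell cannot be told apart, and the part of these lineages in the results was not tested.

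Most of the Pol I machinery was lower in NPCs than in ESCs. Differences are given as NPC minus ESC on the scale of log2(RPKM + 1), which understates the change of genes with low RPKM. With limma on log2(RPKM + 1), 9 of the 10 genes passed the filter of a mean of at least 1 RPKM, and 7 of these 9 were called lower in NPCs at an adjusted p under 0.05, against 34.5% of the 7150 genes tested. None was called higher by limma, where 33.3% of all genes tested were, and the count was 0 at an unadjusted p under 0.05 as well. It was also 0 by limma without ESC replicate 3, against 40.7% of all genes, and 0 by voom on the recovered reads, against 46.0%. In either direction 67.8% of all genes tested were called, so that a call as such was common. All 3 NPC values lay below all 3 ESC values for 8 of the 10 genes, 7 of them among the 9 tested, and this held for 40.2% of the genes tested. The median log2 difference was -0.69 over the 9 tested members and -0.04 over all genes tested. Without ESC replicate 3, 8 members were called lower, against 46.4% of all genes tested. With voom on the recovered reads, chosen after seeing the data, 8 of 10 members were called lower, against 28.1% of 13234 genes.

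**Figure D2:**
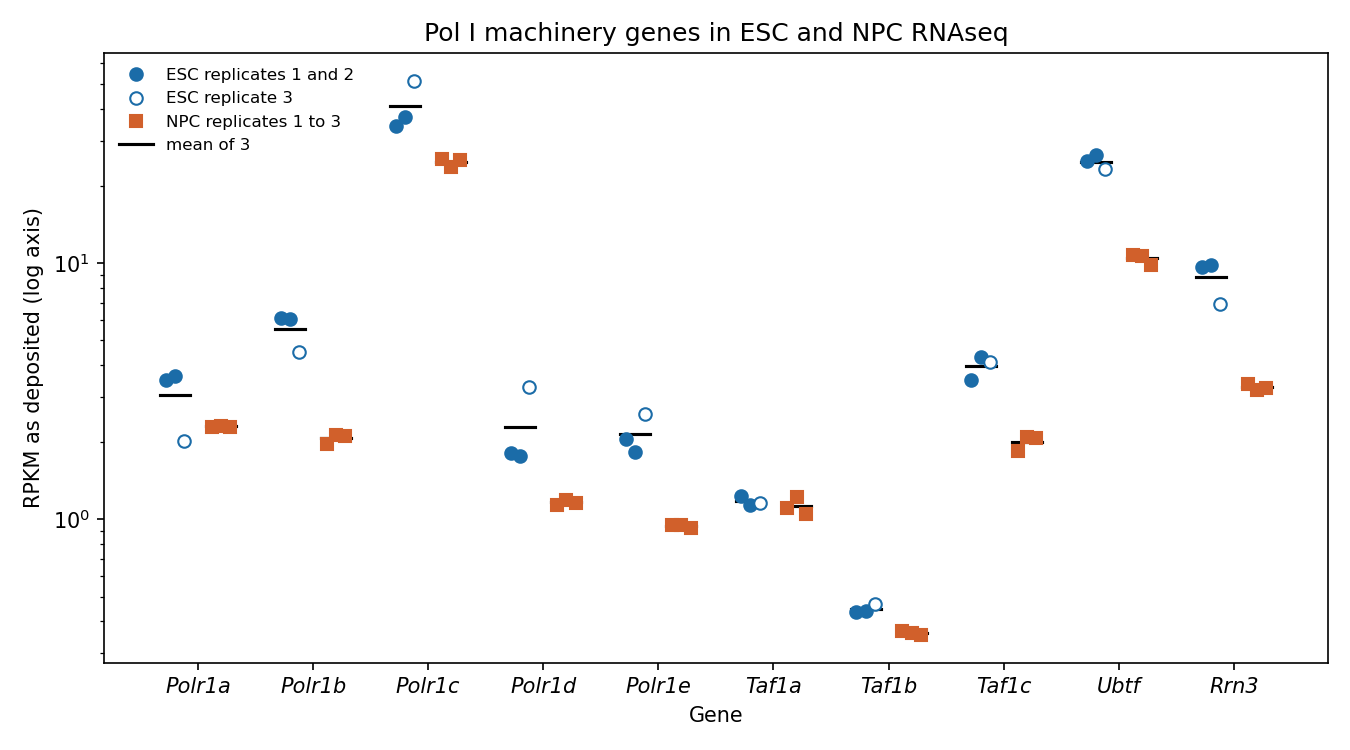
RPKM as deposited (log axis) of the 10 Pol I machinery genes in each of 3 ESC samples (blue circles, ESC replicate 3 open) and 3 NPC samples (orange squares), with black lines for the mean of 3. NPC samples lie below all ESC samples for 8 genes, and the groups overlap for Polr1a and Taf1a.

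Of the subunits of the enzyme, Polr1b encodes the second-largest one, which forms the active centre together with the product of Polr1a. Polr1b stood at 6.08, 6.06 and 4.48 RPKM in ESCs and at 1.97, 2.14 and 2.11 RPKM in NPCs. The groups were far apart, and the lowest ESC value was that of replicate 3. The ESC mean was 2.67 times the NPC mean, and the log2 difference was -1.08 ± 0.12 (SE, adjusted p = 0.000275), and -1.20 without ESC replicate 3. Polr1a, the gene of the largest subunit, had 3.50, 3.63 and 2.02 RPKM in ESCs and 2.30, 2.31 and 2.30 RPKM in NPCs. The NPC values lay below ESC replicates 1 and 2 but above ESC replicate 3, so that the groups overlapped. With all samples its difference of -0.27 ± 0.17 did not pass the test (adjusted p = 0.199, 95% interval -0.68 to 0.14). Leaving out 1 sample at a time gave differences from -0.16 to -0.47. The largest fall, -0.47 ± 0.04, came without ESC replicate 3, where Polr1a was called (adjusted p = 9.69e-06). Its call also came with quantile normalization (adjusted p = 0.0247) and with no other setting, so that the result for Polr1a depends on this library and on the scaling. Polr1a shares 185 of its 11871 exon bases with the antisense gene Gm26628.

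Polr1c and Polr1d encode the AC40 and AC19 subunits, which form the assembly platform of Pol I and are also part of Pol III. Polr1c had 34.1, 36.9 and 51.4 RPKM in ESCs and 25.5, 23.6 and 25.2 RPKM in NPCs. Polr1d had 1.81, 1.77 and 3.28 RPKM in ESCs and 1.14, 1.19 and 1.16 RPKM in NPCs. For both genes the groups did not overlap, and ESC replicate 3 was the highest sample. The log2 difference of Polr1c was -0.68 ± 0.17 (adjusted p = 0.0119) and that of Polr1d -0.57 ± 0.17 (adjusted p = 0.0244). Without ESC replicate 3 the differences were smaller, at -0.50 for Polr1c (adjusted p = 9.85e-05) and -0.37 for Polr1d (adjusted p = 1.84e-05). The call of Polr1d was lost when any NPC replicate was left out, with adjusted p of 0.0777, 0.0660 and 0.0698 without NPC replicates 1, 2 and 3. Polr1c kept its call under all settings, though barely, with a highest adjusted p of 0.04998. Under quantile normalization the difference of Polr1c was smaller, at -0.28 (adjusted p = 0.0206), and that of Polr1d larger, at -0.80. On the recovered reads that of Polr1d was -0.92.

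Polr1e encodes PAF53, a subunit found in Pol I alone that takes part in initiation. It had 2.06, 1.84 and 2.57 RPKM in ESCs and 0.950, 0.953 and 0.925 RPKM in NPCs. Every NPC value was below every ESC value, and the NPC samples differed little from each other (SD 0.0154). The ESC mean was 2.29 times the NPC mean, with a log2 difference of -0.69 ± 0.09 (adjusted p = 0.000676), and without ESC replicate 3 it was 2.07 times (log2 difference -0.60). On the recovered reads, where low values are not shrunk, the difference was -1.18.

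SL1 gives Pol I its promoter specificity, and its TAFI subunits did not move alike. Taf1c, the gene of TAFI95, had 3.50, 4.31 and 4.12 RPKM in ESCs and 1.85, 2.096 and 2.07 RPKM in NPCs. The groups were apart, and ESC replicate 3 lay between the other ESC samples. The ESC mean was 1.98 times the NPC mean (log2 difference -0.72 ± 0.09, adjusted p = 0.000472), and without ESC replicate 3 the difference was -0.70. On the opposite strand, Taf1c shares 584 of its 3490 exon bases with Dnaaf1, and whether reads were counted by strand is not given in the sources used here. Dnaaf1 itself stood at 0.0101 to 0.0154 RPKM in all 6 samples.

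Taf1a, which encodes TAFI48, had 1.23, 1.14 and 1.16 RPKM in ESCs and 1.11, 1.23 and 1.04 RPKM in NPCs. The groups overlapped, and the difference of -0.04 ± 0.05 did not pass the test (adjusted p = 0.581), nor did it without ESC replicate 3 (-0.04, adjusted p = 0.405). Its 95% interval, -0.17 to 0.10, leaves room for a small difference in either direction. Under quantile normalization Taf1a was called lower, with a difference of -0.34 (adjusted p = 0.00449), and no other setting called it (highest adjusted p 0.924). Taf1b, the gene of TAFI68, had 0.437, 0.438 and 0.468 RPKM in ESCs and 0.366, 0.3596 and 0.354 RPKM in NPCs. It fell short of the filter and was not tested in the main comparison, although 590 to 896 reads per sample lay behind these values, since its gene spans 60181 bases. The groups of Taf1b did not overlap, and the ESC mean was 1.24 times the NPC mean, or 1.22 times without ESC replicate 3. With no filter the difference was -0.09 on the log2(RPKM + 1) scale (adjusted p = 0.0133), and on the recovered reads it was -0.32 (adjusted p = 0.0243). The pseudocount of 1 is larger than the values of Taf1b, which shrinks its difference on the first of these scales.

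Ubtf, which encodes the architectural factor UBF, was among the most abundant members. It had 25.0, 26.4 and 23.2 RPKM in ESCs and 10.7, 10.7 and 9.84 RPKM in NPCs. All ESC samples were high and all NPC samples low, with ESC replicate 3 close to the others at 0.901 times their mean. The means were 24.8 ± 1.61 (SD, n = 3) in ESCs and 10.4 ± 0.508 (SD, n = 3) in NPCs, a ratio of 2.38. The log2 difference of -1.18 ± 0.10 had the smallest adjusted p of the list in the main comparison (6.41e-05). It was -1.23 without ESC replicate 3. Under quantile normalization it was -0.93, with an adjusted p (0.000756) above that of Polr1b (6.70e-05).

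Rrn3, the gene of the initiation factor TIF-IA, fell about as much as Ubtf. It had 9.68, 9.85 and 6.94 RPKM in ESCs and 3.37, 3.18 and 3.26 RPKM in NPCs. The groups were far apart, although ESC replicate 3 was the lowest ESC sample, at 0.710 times the mean of the others. The ESC mean was 2.70 times the NPC mean, and the log2 difference was -1.19 ± 0.14 (adjusted p = 0.000345). Without ESC replicate 3 the ratio was 2.98 and the difference -1.33. The differences of Rrn3 and Ubtf lay within their errors. Their order turned when either ESC replicate 1 or ESC replicate 2 was left out, with -1.11 for Rrn3 and -1.14 for Ubtf without ESC replicate 2. In the annotation used here Rrn3 spans 34132 bases. Its values were whole reads only with a span of 34142 bases, the sole length within 5 kb of the annotated one that gave whole reads in all 6 samples, and this length was used to recover its reads.

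Levels of different members were compared as RPKM rescaled to the length of the main transcript. In ESCs Polr1c was the highest with 128 ± 29.1 (SD, n = 3), followed by Rrn3 with 84.1 ± 15.6, Ubtf with 80.4 ± 5.20 and Polr1d with 66.0 ± 24.9. With all samples, the last 3 of these did not differ beyond their spread. Polr1b followed with 35.4 ± 5.88 and Polr1a with 25.1 ± 7.36, and at the lower end stood Taf1a with 17.0 ± 0.716, Polr1e with 13.0 ± 2.26, Taf1b with 12.2 ± 0.476 and Taf1c with 9.04 ± 0.965. In NPCs Polr1c was again the highest with 78.0 ± 3.24. Ubtf (33.7 ± 1.64), Polr1d (33.6 ± 0.689) and Rrn3 (31.2 ± 0.917) followed within a narrow range. Polr1a stood at 18.97 ± 0.0530, Taf1a at 16.2 ± 1.34, Polr1b at 13.3 ± 0.567, Taf1b at 9.81 ± 0.164, Polr1e at 5.68 ± 0.0929 and Taf1c at 4.56 ± 0.302. Without ESC replicate 3 the order in ESCs changed only at its lower end, where Taf1b (mean 11.9) and Polr1e (mean 11.7) changed places. Polr1d then stood at 51.0 and 52.3 in the ESC samples, below Ubtf with 81.0 and 85.3 and Rrn3 with 92.2 and 93.9. Polr1b, which stood above Polr1a and Taf1a in ESCs, stood below both in NPCs. With all annotated exons of a gene as its length, Polr1c, Rrn3 and Ubtf again led in ESCs with 74.0, 69.8 and 57.6. Polr1d, whose annotated exons add up to 3043 bases, then stood at 25.9. On this length the NPC levels were 45.0 for Polr1c, 25.9 for Rrn3 and 24.1 for Ubtf. Polr1d, at 13.2 in NPCs, then lay apart from Rrn3 and Ubtf and below Polr1a with 14.7.

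The remaining subunits found in Pol I alone moved in the same direction. All 3, Twistnb (Polr1f), Cd3eap (Polr1g, PAF49) and Znrd1 (Polr1h), were called lower in NPCs, with a median log2 difference of -1.17. Of all genes tested, 34.5% were called lower. Twistnb had 4.60, 4.53 and 4.27 RPKM in ESCs and 2.71, 2.63 and 2.55 RPKM in NPCs (difference -0.59 ± 0.07, adjusted p = 0.000347, and -0.62 without ESC replicate 3). Cd3eap, whose product pairs with PAF53, had 16.7, 15.9 and 29.4 RPKM in ESCs and 8.71, 7.93 and 7.47 RPKM in NPCs (difference -1.21 ± 0.23, adjusted p = 0.00405). Znrd1 had 10.998, 11.5 and 22.5 RPKM in ESCs and 5.81, 6.15 and 5.40 RPKM in NPCs (difference -1.17 ± 0.26, adjusted p = 0.00764). ESC replicate 3 was far above the other ESC samples for Cd3eap and Znrd1, and without it their differences were -0.94 and -0.85. The exons of Cd3eap share 106 bases with Ercc1 on the opposite strand.

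All 5 subunits shared by Pol I, Pol II and Pol III were called lower as well, against 34.5% of all genes tested. Their median log2 difference was -1.06, and -0.84 without ESC replicate 3, which was the highest sample for each of them. Polr2e and Polr2l fell by like amounts, and which fell more depended on the scale. Polr2e fell from 54.8, 58.1 and 115 RPKM in ESCs to 25.1, 27.9 and 28.8 RPKM in NPCs (difference -1.36 ± 0.29, adjusted p = 0.00607). Its ESC mean was 2.79 times its NPC mean, and its difference was -0.91 under quantile normalization. Polr2l fell by 1.33 (adjusted p = 0.00492), with a ratio of 3.50 and a difference of -1.36 under quantile normalization. Polr2h fell by 1.06 (adjusted p = 0.00294) and Polr2f by 0.82 (adjusted p = 0.00911). Leaving out ESC replicate 3 gave differences of -1.03 for Polr2e, -1.001 for Polr2l, -0.84 for Polr2h and -0.60 for Polr2f. Polr2k had the smallest difference, -0.56 (adjusted p = 0.0451), and lost its call when any NPC replicate was left out, with adjusted p of 0.105 to 0.121. The call was also lost with no filter (adjusted p = 0.0654) and with median scaling (adjusted p = 0.0607), and without ESC replicate 3 the difference was -0.32.

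Of the other SL1 subunits, Taf1d and Taf12 were called lower and Tbp was not called. Taf1d (TAFI41) had 23.7, 19.9 and 13.7 RPKM in ESCs and 9.14, 10.4 and 10.4 RPKM in NPCs (difference -0.84 ± 0.20, adjusted p = 0.00907). Taf12, also a subunit of TFIID, had 1.61, 1.59 and 2.14 RPKM in ESCs and 0.837, 0.796 and 0.816 RPKM in NPCs (difference -0.61 ± 0.09, adjusted p = 0.000939). Tbp, which serves all 3 polymerases, had 2.00, 1.91 and 1.54 RPKM in ESCs and 1.97, 1.98 and 1.97 RPKM in NPCs, and its groups overlapped (difference 0.08 ± 0.08, adjusted p = 0.389). The sign of this difference turned under quantile normalization (-0.10). The differences without ESC replicate 3 were -1.05 for Taf1d, -0.52 for Taf12 and 0.01 for Tbp. That of Taf12 was larger under quantile normalization (-0.94) and on the recovered reads (-1.12). The annotated exons of Taf1d share bases with snoRNA and miRNA genes on the same strand and with 4931406C07Rik and Cep295 on the opposite strand, so that its reads are less certain. Tbp likewise shares exon bases with Pdcd2 on the opposite strand.

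For termination and release of the transcript, neither gene was called. Ttf1, which encodes the factor that binds the terminator of the rRNA gene, had 2.30, 2.09 and 1.396 RPKM in ESCs and 1.34, 1.47 and 1.396 RPKM in NPCs. Its difference of -0.27 ± 0.12 missed the threshold (adjusted p = 0.0924), and without ESC replicate 3 it was -0.41 and was called (adjusted p = 6.19e-05). Ttf1 was also called under quantile normalization of all samples, with -0.51 (adjusted p = 0.00121). Cavin1, which encodes the release factor PTRF and is better known for its role in caveolae, had 2.48, 2.83 and 2.49 RPKM in ESCs and 3.51, 3.00 and 2.91 RPKM in NPCs. All NPC values were above all ESC values, but the difference of 0.20 ± 0.09 did not pass the test (adjusted p = 0.0789), nor did it without ESC replicate 3 (0.18, adjusted p = 0.0501). Under quantile normalization the difference of Cavin1 was smaller, at 0.09 (adjusted p = 0.366).

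**Figure D3:**
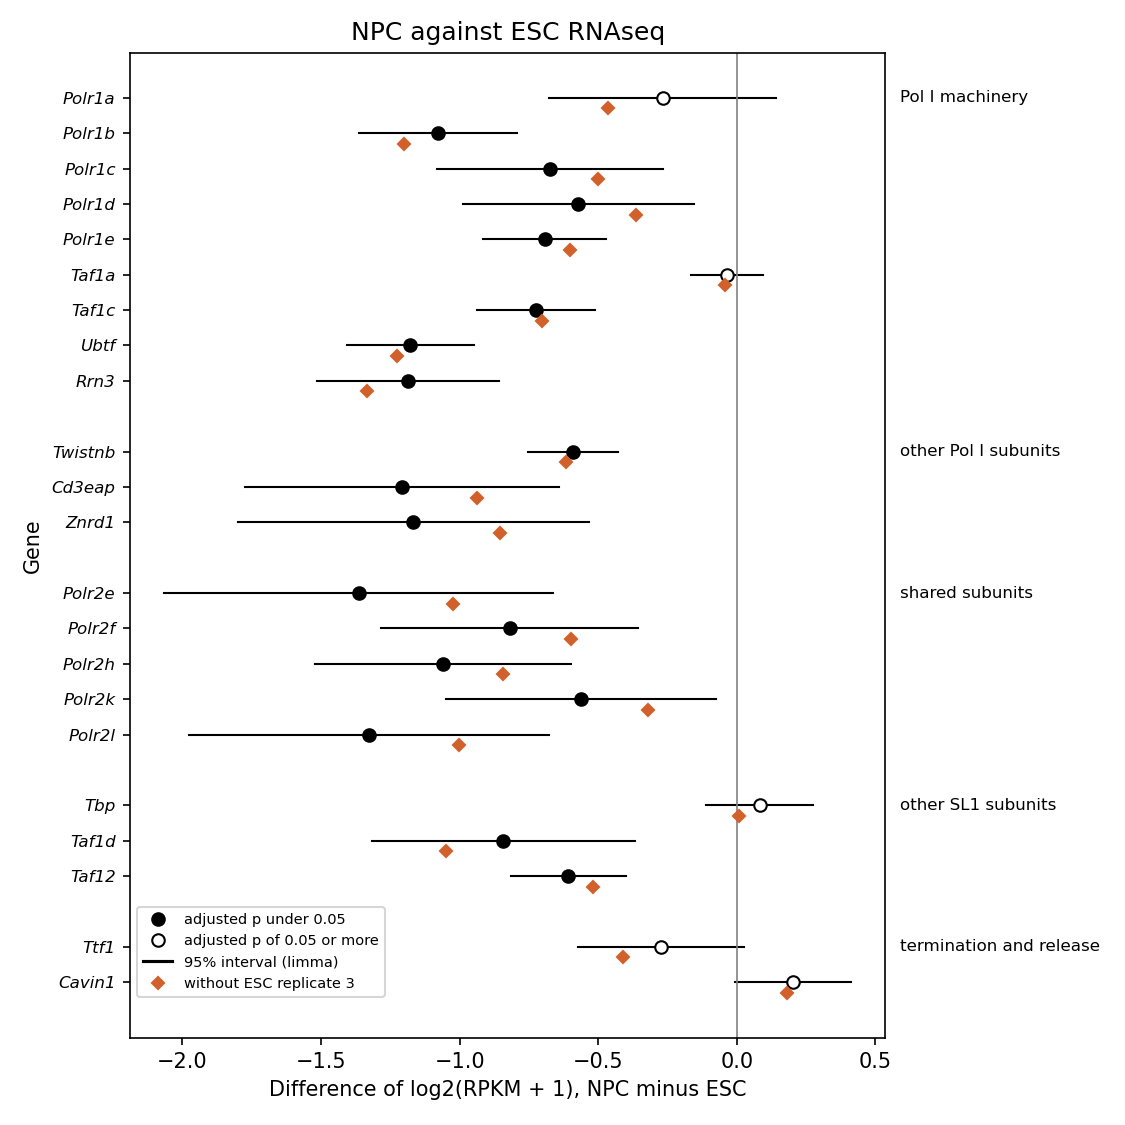
Difference of log2(RPKM + 1), NPC minus ESC, for the 9 tested Pol I machinery genes and 4 related lists (circles, filled where the adjusted p of limma is under 0.05), with 95% intervals from limma as lines and the difference without ESC replicate 3 as orange diamonds. All filled circles lie left of 0, and Tbp, whose sign turned under quantile normalization (-0.10), and Cavin1 are the genes to the right of it.

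Upstream regulators were called in both directions. Of 22 upstream regulators 19 were tested, of which 8 were called lower and 4 higher in NPCs, with a median log2 difference of 0.01. Over all genes tested, 34.5% were called lower and 33.3% higher. When ESC replicate 3 was left out, 10 were called lower and 4 higher, with a median of -0.23. The median was -0.15 under quantile normalization. With a filter of at least 5 RPKM, 9 were tested, of which 5 were called lower and 1 higher, with a median of -0.84. On the log2(RPKM + 1) scale the largest falls were those of the nucleolar proteins Ddx21, a helicase (-1.59 ± 0.21, adjusted p = 0.000654), and Ncl, nucleolin (-1.33 ± 0.13, adjusted p = 0.000181). Their differences without ESC replicate 3 were -1.82 and -1.29, and under quantile normalization that of Ncl was -0.77. Myc, a transcription factor that stimulates ribosome synthesis, rose most, from 1.31, 1.49 and 1.49 RPKM in ESCs to 5.18, 6.15 and 5.66 RPKM in NPCs (difference 1.45 ± 0.08, adjusted p = 1.16e-05). The kinase gene Mapk3, encoding ERK1, rose by 0.85 ± 0.09 (adjusted p = 0.000272). The differences of Myc and Mapk3 without ESC replicate 3 were 1.47 and 0.91. A rise of Myc thus stood beside lower values of most Pol I genes in the same NPC samples. Mycn and Max, also in the list of regulators, are not described here.

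Of 7 subunits found in Pol II alone, 5 were called lower and 0 higher, against 34.5% and 33.3% of all genes tested. Their median was -0.65. All 7 were called lower without ESC replicate 3, with a median of -0.48, and without NPC replicate 2 or 3 the count was 3. Polr2i (-1.57 ± 0.32, adjusted p = 0.00547) and Polr2c (-0.87 ± 0.14, adjusted p = 0.00158) had the largest falls on this scale, with -1.18 and -0.72 without ESC replicate 3. Of 20 Pol III subunits and factors 16 were tested, 5 called lower and 6 higher, with a median of 0.08. These counts lay near the shares over all genes tested, 34.5% lower and 33.3% higher. Without ESC replicate 3, 6 were called lower and 8 higher, against 46.4% and 40.7% of all genes tested. Under quantile normalization 8 were called lower and 5 higher, and the sign of the median turned (-0.08). With a filter of at least 5 RPKM, 4 were tested, of which 1 was called lower and 3 higher, with a median of 0.66. Polr3g, a subunit known for its high level in pluripotent cells, fell by 0.86 (adjusted p = 1.00e-04) and Polr3c by 0.69 (adjusted p = 0.000567), with differences of -0.92 and -0.62 without ESC replicate 3. Polr3k rose by 1.08 ± 0.15 (adjusted p = 0.000879), and by 1.23 without ESC replicate 3. Gtf3c4 stood at 6.13, 6.07 and 2.23 RPKM in ESCs and at 9.17, 8.62 and 8.67 RPKM in NPCs, with a difference of 0.85 ± 0.31 (adjusted p = 0.0480), and of 0.47 without ESC replicate 3. Its call was lost when any NPC replicate was left out (adjusted p of 0.106 to 0.129), and with other pseudocounts, no filter, eBayes without trend or voom (highest adjusted p 0.0715). Whether the lists differ from each other was not tested.

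Most proliferation markers were lower in NPCs as well. Of the 10, all tested, 7 were called lower in NPCs and 1 higher, against 34.5% and 33.3% of all genes tested. Their summed level was 1277, 1299 and 1320 in ESCs and 746, 784 and 767 in NPCs. Pcna was the most abundant in ESCs with 235 and Top2a in NPCs with 148. The marker called higher was Mki67, with 15.1, 13.9 and 5.67 RPKM in ESCs and 25.1, 26.7 and 24.4 RPKM in NPCs, and its call was lost when any NPC replicate was left out (adjusted p of 0.0540 to 0.0627). The same held for the lower call of Cdk1, the gene of a mitotic kinase (adjusted p of 0.0547 to 0.0626). Top2a was called lower without ESC replicate 3 (adjusted p = 0.00533). Under quantile normalization 6 were called lower and 2 higher, with a median of -0.32 in place of -0.78. Ccna2, a cyclin gene, then lost its call (adjusted p = 0.143) and Aurkb, a mitotic kinase gene, was called higher (0.37, adjusted p = 0.00794). The part of the cell cycle in the lower Pol I values was not tested.

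The genes most like Rrn3, which had the lowest log2 difference of the members by a margin within its error, were sought by the Euclidean distance of log2(RPKM + 1) over the 6 samples. Mcm10, a replication factor gene, was the closest (distance 0.146), followed by Jup, the gene of plakoglobin (0.187), and Ino80e, a subunit gene of the INO80 complex (0.275). Mcm10 had 9.43, 9.32 and 6.49 RPKM in ESCs and 3.19, 3.29 and 3.12 RPKM in NPCs, with the same low place of ESC replicate 3 among the ESC samples. Over the 5 samples without ESC replicate 3, Uap1l1 was the closest (distance 0.0776), followed by Mcm10 (0.119) and Pus1 (0.158). No member rose, so that no such search was made for a rise.

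The position of the genes was set against the nucleolar associated domains (NADs) that the authors mapped by Nucleolar-DamID in each cell type. All positions are on GRCm38. In ESCs 1 of the 10 genes overlapped a NAD, against 27.2% of the 21259 genes placed, and in NPCs 0 of 10 did, against 21.7%. The gene was Rrn3, at chr16:13780708-13814839, which lay entirely within an ESC NAD at chr16:13298246-13900344. The score of this NAD was 0.00397, far below the median of 0.0256 over the 1769 NADs of ESCs. In NPCs the nearest NAD, at chr16:13300215-13699940, ended 80.8 kb before Rrn3. Rrn3 lay in a listed NAD only in ESCs, the cell type in which its mRNA was higher. The lowest score in the NPC list was 0.00823, above that of this ESC NAD. Whether the lack of overlap in NPCs comes from this limit was not tested. When NADs with scores below the median were left out, 0 of the 10 genes overlapped a NAD in ESCs as well, against 16.5% of the genes placed.

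Among the others Polr1a came closest. It lies at chr6:71909053-71984935, and an NPC NAD ended 9.44 kb before it, whereas the nearest ESC NAD was 410 kb away. Polr1e, at chr4:45018583-45036565, was 118 kb from a NAD that had the same borders in both cell types. Taf1b, at chr12:24498359-24558539, was 242 kb from the nearest NAD in ESCs and 3.14 Mb in NPCs, where it was the farthest of the 10, whereas in ESCs Taf1a was. Ubtf (chr11:102304560-102319742) lay 181 kb and 705 kb from the nearest NAD in ESCs and NPCs, and Polr1b (chr2:129100995-129126594) 399 kb and 401 kb. For Polr1c (chr17:46243920-46248054) the distances were 852 kb and 744 kb, for Polr1d (chr5:147077050-147111597) 777 kb and 1.38 Mb, for Taf1a (chr1:183388981-183410198) 1.29 Mb and 1.39 Mb, and for Taf1c (chr8:119597871-119605222) 598 kb and 2399 kb. The 10 genes lay on 10 different chromosomes. The median distance over all genes placed was 195 kb in ESCs and 319 kb in NPCs. The NAD lists join 2 experiments per cell type and hold no values per experiment, so these distances carry no error.

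Promoter sequences from RefSeq (GRCm38.p6), from 250 bases before to 50 bases after the gene start, were found for all 10 genes, with 17 promoters in total. The E-box CACGTG, which is bound by MYC among other factors, was found in 1 of the 17 promoters, against 7.15% of 32851 promoters. That promoter was the one of Rrn3, with E-boxes 215 and 48 bases before the gene start. The ETS motif CCGGAAG, read on both strands, was found in promoters of 6 of the 10 genes (Polr1c, Polr1e, Rrn3, Taf1a, Taf1b and Taf1c), against 9.93% of all genes. Both promoters of Taf1a held it, and since they overlap they share some of these sites. Of the 2 promoters of Taf1c, only the 1 shown here held it. By promoter, the motif was found in 7 of 17, with the shared sites of Taf1a counted in both, against 8.86% of all promoters. Ubtf, with 6 promoters, had neither motif. The TATA box TATAAA was found in 0 of the 17 promoters, against 13.6% of all. The motif was thus present in genes that fell, such as Rrn3 and Taf1c, and in Taf1a, which was not called, and a match describes letters, not a bound site. The 3 promoters below show the motifs in these genes, 5′ to 3′ on the strand of the gene, with E-boxes and ETS motifs of either strand in capitals. They lie at chr16:13780449-13780748 (Rrn3, plus strand), chr8:119605157-119605456 (Taf1c, minus strand) and chr1:183388635-183388934 (Taf1a, plus strand).
Rrn3: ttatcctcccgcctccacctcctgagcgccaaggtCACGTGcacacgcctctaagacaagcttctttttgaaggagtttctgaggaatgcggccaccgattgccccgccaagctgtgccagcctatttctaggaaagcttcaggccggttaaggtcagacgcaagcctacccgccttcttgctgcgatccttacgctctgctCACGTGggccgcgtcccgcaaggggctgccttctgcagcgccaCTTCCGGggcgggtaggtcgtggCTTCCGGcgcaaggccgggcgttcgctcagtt
Taf1c: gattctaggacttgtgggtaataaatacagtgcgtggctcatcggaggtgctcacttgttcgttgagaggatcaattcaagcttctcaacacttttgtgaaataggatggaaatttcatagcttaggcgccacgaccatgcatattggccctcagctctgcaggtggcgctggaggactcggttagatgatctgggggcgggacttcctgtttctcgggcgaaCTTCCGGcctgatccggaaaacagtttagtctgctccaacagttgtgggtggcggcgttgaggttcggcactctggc
Taf1a: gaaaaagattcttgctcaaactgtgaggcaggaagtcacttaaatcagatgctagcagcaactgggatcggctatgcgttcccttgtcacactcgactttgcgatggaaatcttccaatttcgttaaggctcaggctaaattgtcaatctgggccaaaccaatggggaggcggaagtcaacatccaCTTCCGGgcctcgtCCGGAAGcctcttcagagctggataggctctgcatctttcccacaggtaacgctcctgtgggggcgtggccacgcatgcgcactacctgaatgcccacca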

How the data were processed

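RNAseq measured polyadenylated RNA in 3 ESC and 3 NPC samples. The authors used FastQC, SortMeRNA against rRNA reads, Trimmomatic and then STAR on mm10, and deposited RPKM per gene in 1 table per cell type, each sample scaled on its own. The submitters' processing notes also name Subread 1.4.6-p4. The labels name a kit without strand marking and the methods a stranded one; the use of strand in counting is not given in the sources used here. For Nucleolar-DamID, the authors called domains from the ratio of H2B-Dam-NoLS to H2B-Dam, kept those found in both experiments and deposited a score per NAD.

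Symbols on more than 1 line (153) were left out. Genes with a mean of at least 1 RPKM over the 6 samples were tested on log2(RPKM + 1), a scale that understates the change of low genes, by lmFit and eBayes with trend (R 4.3.3, limma 3.58.1), with Benjamini-Hochberg adjustment over all 7150 genes tested and a threshold of 0.05. Errors of differences are standard errors of limma, and its intervals are 95% intervals. With 3 samples against 3, an exact permutation test of a single gene cannot go below p = 0.10 and was not used. Reads were recovered from RPKM and the gene spans of the GENCODE M21 annotation, and voom (limma) was run on genes with a mean of at least 10 such reads, an alternative chosen after seeing the data. Replicate pairs all differed by more than sampling noise, with a mean chi-square per gene of 3.17 to 9.04 within NPCs, 6.21 between ESC replicates 1 and 2, and 298 and 321 between ESC replicate 3 and these.

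NAD starts count from 0 in the lists and are printed 1 higher. A gene overlapped a NAD by any base of its body. Other steps used Python 3.11.15, matplotlib 3.10.9, scipy 1.17.1, pandas 2.3.3 and numpy 2.4.6. Transcript length is that of the longest principal transcript of the annotation.

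The members and lists were chosen with earlier results of these data known. Named were all 10 members, all genes of the lists of other Pol I subunits, shared subunits, other SL1 subunits and termination factors, from each other list up to 2 called genes at either end of the differences, the 3 genes nearest to the member with the lowest log2 difference, and markers. Overlapping genes, and levels and nearest genes without ESC replicate 3, were added after the values were seen. Alternatives were other pseudocounts, filters and scalings, duplicate symbols kept, leaving out each sample, blocking by replicate number, eBayes without trend, and other rules of NAD overlap.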

Additional observations from a re-analysis of the deposited data

How the results depend on the processing

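The count of 4845 called genes (2380 higher and 2465 lower in NPCs) changed with the filter and the method. Filters change the genes that enter the test, and voom changes the genes, the scale and the method together. With no filter it was 11366 (7200 higher, 4166 lower), with a filter of at least 5 RPKM 1779 (590 and 1189), and with voom on the recovered reads, chosen after seeing the data, 9806 (6090 and 3716). The stricter filter left 3 members, Polr1c, Rrn3 and Ubtf, all 3 called lower. Under it more of all genes were called lower (1189) than higher (590), and their share of the genes tested is not given here. Under the other settings between 6 and 9 members were called lower, and none was called higher under any setting. The count of all genes called lower moved as well. It was 2782 under quantile normalization, where 9 members were called lower, and 1921 to 1937 without an NPC replicate, where 6 members were. The direction of each tested member was the same under all settings, median scaling and quantile normalization included. Leaving out a sample in turn gave 3945 to 6223 called genes, the highest without ESC replicate 3, and 6 to 8 members called lower, the lowest without each of the NPC replicates. Polr1a was called under quantile normalization (-0.41, adjusted p = 0.0247) and without ESC replicate 3, and not otherwise. The cause of these changes was not tested. In ESCs, NADs at or above the median score gave 0 overlapping members in place of 1, against 16.5% of all genes placed. A gene start inside a NAD gave 1 in ESCs, against 23.7% of all genes placed. At least 50% of the gene body inside NADs gave 1 as well, against 24.6%. In NPCs each of these rules gave 0 members, against 12.4% to 19.6% of all genes placed.

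With the replicate block, 4547 genes were called, 2309 of them lower in NPCs, and 7 members were called lower. The deviations of ESC and NPC samples of the same number correlated across genes at 0.113, -0.0839 and 0.0310. Samples of different numbers gave -0.0889 to 0.0895. The ESC deviations were taken from a mean that includes ESC replicate 3, which stood apart. These correlations therefore cannot decide whether samples of the same number were prepared together.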
